A study of Mus musculus with 3 samples.

Results

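The genes described here are the autosomal protein-coding genes that encode the numbered Psma, Psmb, Psmc, Psmd and Psme subunits of the mouse proteasome. They were chosen by symbol from GENCODE vM21, the gene annotation of mm10, with Psmc3ip left out because it is no subunit. The rule gave 43 genes of 20807 autosomal protein-coding genes. It used no measured value.

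The proteasome is the protease complex that degrades proteins tagged with ubiquitin. Its 20S core is a barrel of alpha (Psma) and beta (Psmb) subunits, and 3 of the beta subunits, Psmb5, Psmb6 and Psmb7, cut the peptide chain. The 19S regulator, made of the Psmc ATPases and most Psmd proteins, recognises and unfolds the substrate. Psme proteins are activators that can take the place of the regulator. Some subunits have substitutes that are known for one tissue or state. In male germ cells Psma8 replaces Psma7 and the activator Psme4 (PA200) is abundant, in cells exposed to interferon gamma Psmb8, Psmb9 and Psmb10 replace Psmb5, Psmb6 and Psmb7, and in the thymus Psmb11 replaces Psmb5. H3K4me3, trimethylated lysine of histone H3, marks the starts of active genes, and in meiotic cells PRDM9 also places it at recombination hotspots.

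H3K4me3 was measured by ChIP-seq in whole adult testis of (C57BL/6J x CAST/Eij)F1 males whose Prdm9 genotype was Humanized/CAST, that is, 1 allele with the zinc-finger array of human PRDM9 and 1 CAST allele. The series holds 2 H3K4me3 ChIP libraries (antibody Abcam ab8580) beside 1 library of input chromatin and no second condition. They came from mice that the methods give as 23 weeks old with a CAST/Eij father. The sample labels speak of both testes of a single male and the methods of 1 testis from each of 2 littermates. Under the account in the labels, replicates differ by technical spread alone. With 1 condition no groups of samples could be tested against each other, so the values below are descriptions, and genes are not replicates. Whole testis holds germ cells of all stages with somatic cells, and a mark present in fewer cells cannot be told apart from a mark that is weaker in every cell.

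The deposited narrow peaks give, for the single base at the peak centre, the number of overlapping fragments in each library. Over 101978 narrow peaks the sums were 17621116 (replicate 1) and 19094837 fragments (replicate 2), and 1250138 for the input. Values called scaled here are the fragments of a replicate multiplied to the mean total of both replicates, by 1.04 in replicate 1 and 0.961 in replicate 2. The enrichment is the authors' ratio over local background from both replicates together. Each gene was given the narrow peak of highest enrichment with its centre within 1 kb of any of its transcript starts. All 6 marker genes of germ cells had a narrow peak, with scaled coverage of 445 (Dmc1) to 2052 (Sycp3), whereas 4 of 6 genes of immune cells had one, at 9.98 to 50.4, and Ptprc and Itgam had none. Narrow peaks were found at 3 of 4 spermatid genes, 3 of 4 Sertoli cell genes and 3 of 4 Leydig cell genes. Their scaled coverage was 126 to 319, 280 to 487 and 37.7 to 113. Both neuronal genes had one, at 68.4 and 89.1, the latter at Neurod1 in a peak shared with Cerkl. No narrow peak lay at the thymus gene Foxn1 or the liver genes Alb and Apoa1.

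The promoter sequences show what kind of start these genes have. RefSeq windows on GRCm38.p6, which has the coordinates of mm10, run from 250 bases before to 50 bases after a gene start and were found for 36 of the 43 genes. Psma8, Psmb1, Psmb2, Psmb7, Psmc3, Psmd3 and Psmd7 had no window. Stretches upstream of the start that lie outside annotated exons are printed 5′ to 3′ on the gene's strand, with every CG dinucleotide in capitals. They are those of the constitutive beta subunits Psmb5 and Psmb6, of the testis activator Psme4 and of Psme2, an activator low in enrichment among the members.
Psmb5 (chr14:54618023-54618245, minus strand): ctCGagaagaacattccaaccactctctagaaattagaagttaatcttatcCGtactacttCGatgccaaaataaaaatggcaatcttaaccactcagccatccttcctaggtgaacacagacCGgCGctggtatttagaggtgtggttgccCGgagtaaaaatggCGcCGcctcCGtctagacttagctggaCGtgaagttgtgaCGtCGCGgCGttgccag
Psmb6 (chr11:70525107-70525356, plus strand): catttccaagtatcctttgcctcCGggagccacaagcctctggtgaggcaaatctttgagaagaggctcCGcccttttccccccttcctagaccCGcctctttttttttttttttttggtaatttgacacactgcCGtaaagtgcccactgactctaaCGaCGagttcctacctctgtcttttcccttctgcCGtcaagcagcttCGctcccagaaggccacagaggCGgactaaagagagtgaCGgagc
Psme4 (chr11:30771525-30771725, plus strand): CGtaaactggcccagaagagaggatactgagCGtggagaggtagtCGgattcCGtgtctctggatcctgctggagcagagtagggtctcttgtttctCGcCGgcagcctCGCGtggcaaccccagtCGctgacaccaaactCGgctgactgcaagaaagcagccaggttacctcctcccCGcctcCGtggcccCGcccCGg
Psme2 (chr14:55591114-55591351, minus strand): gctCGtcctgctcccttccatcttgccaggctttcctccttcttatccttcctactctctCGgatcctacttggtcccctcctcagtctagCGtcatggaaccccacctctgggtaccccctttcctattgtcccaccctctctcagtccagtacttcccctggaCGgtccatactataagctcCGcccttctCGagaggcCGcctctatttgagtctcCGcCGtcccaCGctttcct

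These stretches hold 14 CG dinucleotides in Psmb5, 10 in Psmb6, 14 in Psme4 and 10 in Psme2. The whole windows of the members held a median of 19 CG dinucleotides, beside 15 over all 15704 autosomal protein-coding genes with a window, 20 over those with a narrow peak and 2 over those without. The median GC content of the members was 58.2%, beside 57.7% over all genes. Both members without a peak had few CG dinucleotides, with 4 in Psmb11 and 2 in Psme2b.

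A start marked by H3K4me3 was found at nearly every member. A narrow peak lay within 1 kb of a start of 41 of 43 genes (95.3%), beside 77.3% of all autosomal protein-coding genes. A broad peak lay there for the same 41 genes, beside 80.1%. The exceptions were Psmb11, the thymus subunit, and Psme2b, a single-exon copy of Psme2, which had neither kind of peak at their starts. All 41 strongest narrow peaks lay in regions that the authors list as PRDM9-independent, beside 91.9% of genes with a peak.

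The mark was high at most members and similar between the libraries. The median scaled coverage of the 41 genes was 1514 in replicate 1 and 1549 in replicate 2, 1543 ± 24.8 overall (SD over the medians of 2 replicates), beside a median of 785 over 16086 genes with a peak. The median enrichment was 73.3, beside 38.3. Scaled coverage was above the median of all genes at 37 members and above their upper quartile (1501) at 21. Enrichment was above the upper quartile of all genes (65.8) at 26 members. The log2 ratio of replicate 2 to replicate 1 ran from -0.35 at Psmb8 to 0.21 at Psmb6, and no member differed by over 1.5 times. Scaled values were higher in replicate 1 at 20 genes and in replicate 2 at 21. The mean squared difference was 1.90 times that of counting noise, beside 3.01 at the strongest peaks of all genes.

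**Figure D1:**
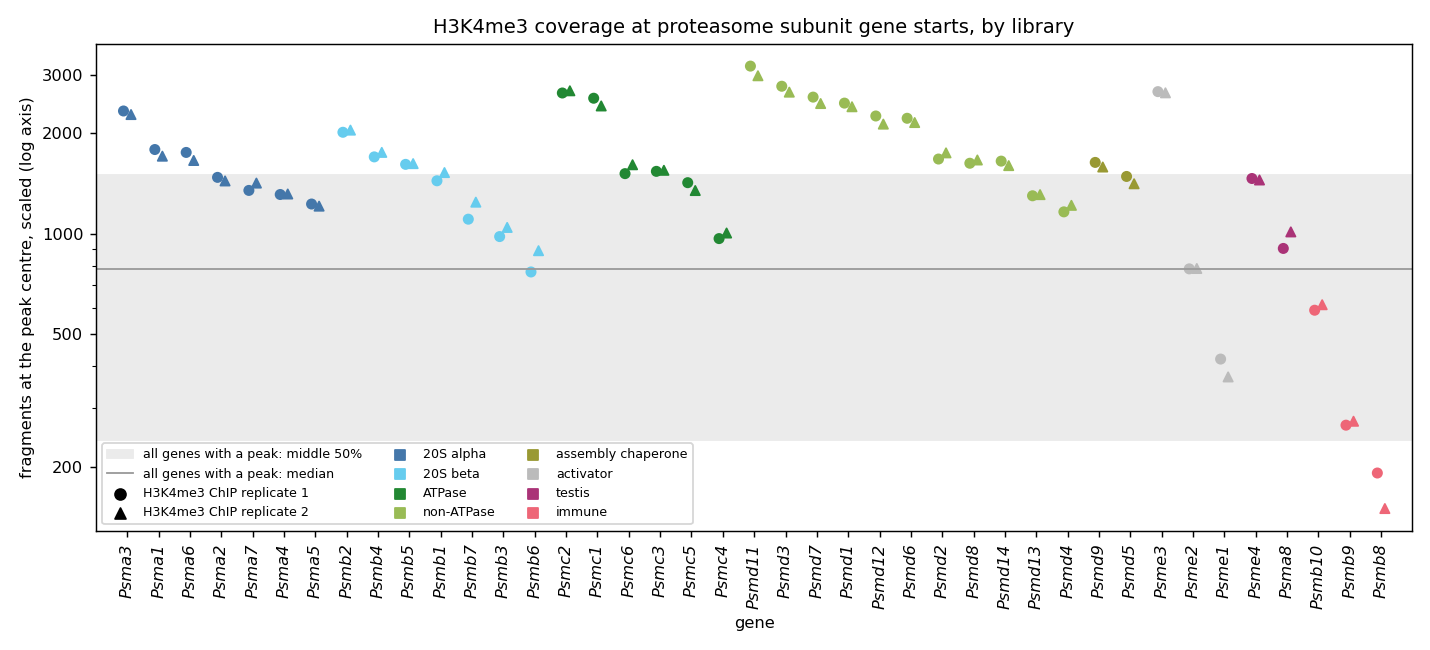
Scaled fragments at the centre of the strongest narrow peak (log axis) for the 41 subunit genes with a peak, in H3K4me3 ChIP replicate 1 (circles) and 2 (triangles), coloured by role, with the median of all genes with a peak (line, 785) and their interquartile range (grey). Psmb8, Psmb9, Psmb10 and Psme1 lie below that line in both libraries, and the libraries differ little beside the spread among genes.

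The alpha subunits form the outer rings of the core, through which substrates enter. The median enrichment of Psma1 to Psma7 was 62.2 and ranged from 43.3 to 86.6. Psma3 was the highest. It had 2239 and 2367 fragments in the ChIP replicates over 25 in the input. Psma7, the subunit that Psma8 replaces in germ cells, was the lowest, with 1294 and 1475 fragments over 30 in the input. Its input count was among the higher ones of the alpha subunits, and its scaled coverage of 1383 ± 49.5 (SD, n = 2) was above that of Psma4 (1313) and Psma5 (1218).

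The beta subunits form the inner rings with the catalytic sites. The median enrichment of Psmb1 to Psmb7 was 76.0. Psmb6 had the highest enrichment of all members, 156, and Psmb1 followed at 139.7. These values rest on few input fragments, 5 at Psmb6 (95% Poisson interval 1.62 to 11.7) and 10 at Psmb1 (4.80 to 18.4). The peak given to Psmb1 lay 397 bp upstream of its nearest start and within 1 kb of a start of Tbp. It thus cannot be given to 1 of the 2 genes. Another peak of Psmb1, 192 bp from a start, had an enrichment of 44.9. In coverage Psmb6 was the lowest constitutive core subunit, with 737 fragments in replicate 1 and 925 in replicate 2. Psmb4, whose strongest peak had the lowest enrichment among those of the constitutive beta subunits (55.9), had 1631 and 1823 fragments over 29. The order of these subunits depended on the measure. Psmb2 had the highest coverage, 1933 and 2126 fragments over 18, in a region 1900 bp wide.

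The 6 ATPases of the regulator, which pull the substrate into the core, had a median enrichment of 86.9. Psmc3 was the highest at 103.7, with 1476 and 1611 fragments over 14, and Psmc5 the lowest at 59.1, with 1365 and 1401 over 22. In coverage Psmc2 and Psmc1 were the highest, at scaled values of 2661 ± 28.5 and 2481 ± 93.5 (SD, n = 2). Psmc4 was the lowest at 986 ± 26.8.

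The 11 non-ATPase subunits, which include ubiquitin receptors and Psmd14, the subunit that removes ubiquitin chains, had the highest coverage of the roles. Their median scaled coverage was 2186, beside 1470 for the 14 constitutive core subunits and 1552 for the ATPases. Psmd11, a scaffold subunit, had 3052 fragments in replicate 1 and 3094 in replicate 2, the highest coverage of all members in each library, over 28 in the input. It was also the highest non-ATPase by enrichment (103.2). Psmd12 had the lowest enrichment of them, 57.1, with 2163 and 2216 fragments over an input of 36. Psmd4, a ubiquitin receptor, had the lowest coverage, 1116 and 1265 fragments. By enrichment the median of the non-ATPases was 76.6, below that of the ATPases. The chaperones Psmd5 and Psmd9, which help assemble the regulator and are not part of it, had enrichments of 61.8 and 108, with Psmd9 among the 3 highest members outside the tissue subunits.

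In coverage the activators differed more among themselves than the subunits of the core or the regulator. Psme3, which forms the nuclear activator PA28 gamma, had 2559 and 2750 fragments over 36 in the input and an enrichment of 69.3. Psme1 had 404 and 387 fragments over 19, and an enrichment of 19.5. Psme2 had 753 and 818 over 29, and 25.4. Psme1 and Psme2, which together form the activator PA28 and are induced by interferon gamma, were thus the lowest of the constitutive members by enrichment. The coverage of Psme1 was 0.158 times that of Psme3 in replicate 1 (exact 95% interval 0.142 to 0.175) and 0.141 times in replicate 2 (0.126 to 0.157). Psme1 and Psme2 were picked out after their values were seen, and the intervals here and below cover counting error only. The peak given to Psme2 lay 811 bp upstream of its nearest start and within 1 kb of a start of Rnf31, so it cannot be given to 1 of the 2 genes.

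The germ cell subunits were compared with the 36 constitutive members that had a peak, which are all members other than the testis, immune and thymus subunits and Psme2b. Psma8 (chromosome 18, 14706151 to 14762301 of mm10, plus strand) had 867 (95% Poisson interval 810 to 927) and 1053 (990 to 1119) fragments in the 2 ChIP libraries over 9 (4.12 to 17.1) in the input. Psme4 (chromosome 11, 30771726 to 30880361, plus strand) had 1405 (1332 to 1480) and 1507 (1432 to 1585) over 15 (8.40 to 24.7). Both had thus a clear peak in each library, and Psma8 had the lower coverage of the pair.

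Their order against the constitutive members turned with the measure. In scaled coverage the median of the pair lay below that of the constitutive members by a log2 difference of -0.45 ± 0.06 (SD, n = 2 replicates), with -0.49 in replicate 1 and -0.41 in replicate 2. Psma8 differed by -0.75 ± 0.13 and Psme4 by -0.15, and 3 of 36 constitutive members lay below Psma8 in replicate 1 and 4 in replicate 2. In enrichment the pair lay above, by a log2 difference of 0.38, with 100.3 at Psma8 and 91.3 at Psme4 beside a median of 73.4. The enrichment exceeded that of 28 of 36 constitutive members at each gene. The input was low at Psma8, since only 1 other member had as few input fragments, and 10 of 41 members with a peak had as few as Psme4 or fewer, itself included. The part of the input in this difference was not tested.

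Psma8 and Psma7, the pair that exchange in the core, showed the same turn. Psma8 had 0.670 times the ChIP fragments of Psma7 in replicate 1 (exact 95% interval 0.614 to 0.731) and 0.714 times in replicate 2 (0.659 to 0.773), and 2.32 times its enrichment. The ratio of enrichments is imprecise, since Psma8 had 9 input fragments (95% Poisson interval 4.12 to 17.1). The peak of Psma7 also lay within 1 kb of a start of Ss18l1.

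Among the catalytic subunits with a peak, the immune subunits carried the weakest marks in both libraries. Psmb8 (chromosome 17, 34197721 to 34201454, plus strand) had 184 (95% Poisson interval 158 to 213) and 156 (132 to 182) fragments in the 2 ChIP libraries over 13 (6.92 to 22.2) in the input, and an enrichment of 12.2. Psmb9 (chromosome 17, 34181987 to 34187764, minus strand) had 256 (226 to 289) and 285 (253 to 320) over 27 (17.8 to 39.3), and 9.30. Psmb10 (chromosome 8, 105935735 to 105938444, minus strand) had 566 (520 to 615) and 637 (588 to 688) over 22 (13.8 to 33.3), and 25.6. Each was above the input in both libraries, and the deposited p of the peaks was 9.81e-203 at Psmb8, 2.75e-313 at Psmb9 and written as 0 at Psmb10.

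Against the constitutive members the median of the 3 genes was lower by a log2 difference of -2.58 ± 0.04 in scaled coverage (SD, n = 2 replicates), with -2.60 in replicate 1 and -2.55 in replicate 2, or 16.8% of the constitutive median. In enrichment the log2 difference was -2.59. In scaled coverage Psmb8 differed by -3.24 ± 0.24, Psmb9 by -2.58 ± 0.04 and Psmb10 by -1.43 ± 0.05. In enrichment the same genes differed by -2.59, -2.98 and -1.52, so Psmb9 was the lowest by that measure. No constitutive member lay below Psmb8 or Psmb9 in coverage in either library, and 1 of 36, Psme1, lay below Psmb10. In enrichment none lay below Psmb8 or Psmb9, and 2 of 36 lay below Psmb10. The input, at 13, 27 and 22 fragments, lay within the 5 to 38 of the other members. Among all genes with a peak the scaled coverage of Psmb8, Psmb9 and Psmb10 exceeded that of 20.1%, 27.0% and 43.0% of genes. The immune cell markers given above, at 50.4 or less where they had a peak, were lower than all of these. The part of immune cells in the marks of Psmb8, Psmb9 and Psmb10 was not tested.

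Pairs of exchanged subunits gave the same order in both libraries. Psmb8 had 0.119 times the ChIP fragments of Psmb5 in replicate 1 (exact 95% interval 0.101 to 0.138) and 0.0925 times in replicate 2 (0.0780 to 0.109). Psmb9 had 0.347 times those of Psmb6 (0.300 to 0.401) and 0.308 times (0.269 to 0.352). Psmb10 had 0.533 times those of Psmb7 (0.481 to 0.591) and 0.493 times (0.447 to 0.542). All intervals lay below 1. The ratio of enrichments was 0.160, 0.0595 and 0.347 for the same pairs, so Psmb9 was the farthest from its partner in enrichment and Psmb8 in coverage. The ratio of Psmb9 to Psmb6 in enrichment is imprecise, since Psmb6 had 5 input fragments (95% Poisson interval 1.62 to 11.7).

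**Figure D2:**
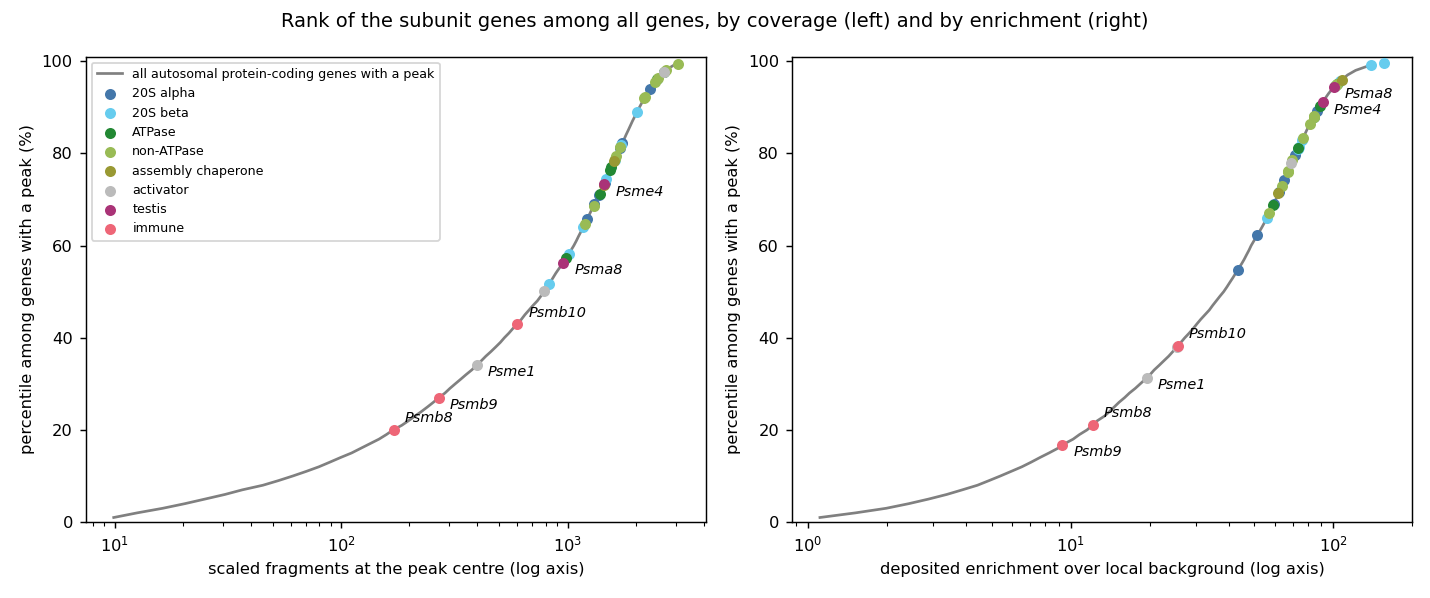
Percentile of each subunit gene among autosomal protein-coding genes with a narrow peak, plotted against scaled fragments (left) and the deposited enrichment (right), both on log axes, with the curve of all those genes in grey. Psmb8, Psmb9 and Psme1 sit low on both axes, while Psma8 stands at 56.3% by coverage and 94.3% by enrichment.

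The position of the peaks set the immune genes in their surroundings. Psmb9 shares its promoter region with Tap1, which encodes a subunit of the transporter that carries proteasome products to MHC class I molecules. The strongest narrow peak of both genes is the same, 141 bp upstream of the nearest start of Psmb9. At Psmb10 the peak centre lay 1169 bp downstream of the annotated 5′ end of the gene and 237 bp from the nearest internal transcript start, and with the 5′ end alone as the start Psmb10 had no narrow peak within 1 kb. At Psmb8 the centre lay 747 bp downstream of the 5′ end of the gene and 91 bp downstream of its nearest start.

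A list of 6 genes of antigen presentation was low in most of its members. All had a narrow peak, and 5 of 6 lay below the median of all genes with a peak in enrichment (38.3). Of these 5, Tap1 has the same peak as Psmb9 (9.30), so it adds no value of its own. Tap2 had an enrichment of 27.0, B2m of 23.5, Irf1 of 22.0 and Nlrc5, a transactivator of MHC class I genes, of 6.79. Tapbp, at 81.2, lay above the upper quartile of all genes, in a peak shared with Zbtb22. A list of 18 genes that assemble, regulate or serve the proteasome was high instead. All 18 had a narrow peak, 9 of 18 lay above the upper quartile of all genes in enrichment and 16 of 18 in scaled coverage. Their median scaled coverage was 1960, beside 1614 for the constitutive subunits, whereas their median enrichment was 66.5, beside 73.4. Psmg2, an assembly chaperone of the core, had 2840 and 2847 fragments over 18 in the input, in a peak shared with Cep76. The transcription factor gene Nfe2l1, which drives subunit genes when the proteasome is inhibited, had 1868 and 1845 over 29. Psmg4 was the lowest at 929 and 964 over 29.

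The widest broad peak at a start had a median of 3400 bp over the 41 genes and ranged from 1900 to 16600 bp, beside a median of 3300 bp over all genes with a broad peak. All 3 immune subunits lay below that median, with 2400 bp at Psmb8 and 2300 bp at Psmb9 and Psmb10. These were wider than at 30.1% and 27.7% of all genes with a broad peak. Of 36 constitutive members 5 were narrower than Psmb8, and 4 were narrower than Psmb9 and Psmb10. Both testis subunits lay above it, with 10200 bp at Psma8 and 6400 bp at Psme4, and 9 of 36 constitutive members were wider than Psme4. The region of Psma8 was wider than at 94.0% of all genes, and 1 of 36 constitutive members was wider. It reached 8097 bp downstream of the start nearest the peak centre and 2102 bp upstream, and it held no start of another protein-coding gene.

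Other wide regions held further starts. Psmd8 had the widest of all members, 16600 bp, of which 14180 bp lay downstream, and it also covered starts of Ggn, a gene active in germ cells, and Spred3. The 6600 bp at Psmb3 covered a start of Pcgf2 and the 4500 bp at Psme1 a start of Fitm1. The 9500 bp at Psma3, which lay mostly upstream (7418 bp), and the 8300 bp at Psmd1 held no start of another protein-coding gene.

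**Figure D3:**
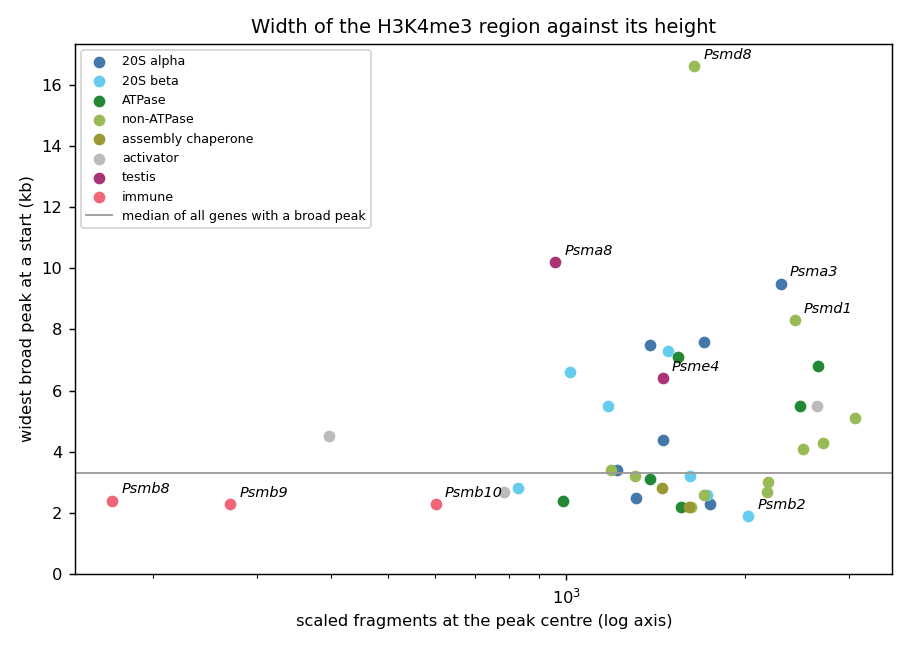
Width of the widest broad peak at a start (kb) against scaled fragments at the centre of the strongest narrow peak (log axis) for the 41 genes, coloured by role, with the median width of all genes with a broad peak as a line. The immune subunits lie at the lower left, while Psmd8 and Psma8 are the widest, at scaled values of 1645 and 958.

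The centre of the peak mostly lay just inside the gene. The median position was 144 bp downstream of the nearest start, and 32 of 41 members (78.0%) had the centre downstream, beside 77.2% of genes with a peak. The strongest peak was also within 1 kb of a start of another protein-coding gene at 9 of 41 members (22.0%), beside 16.8%. These pairs were Psma2 with Mrpl32, Psma4 with AY074887, Psma7 with Ss18l1, Psmb1 with Tbp, Psmb9 with Tap1, Psmc2 with Dnajc2, Psmc5 with Ftsj3, Psmd13 with Sirt3 and Psme2 with Rnf31. At a shared start the mark cannot be given to 1 of the 2 genes.

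**Figure D4:**
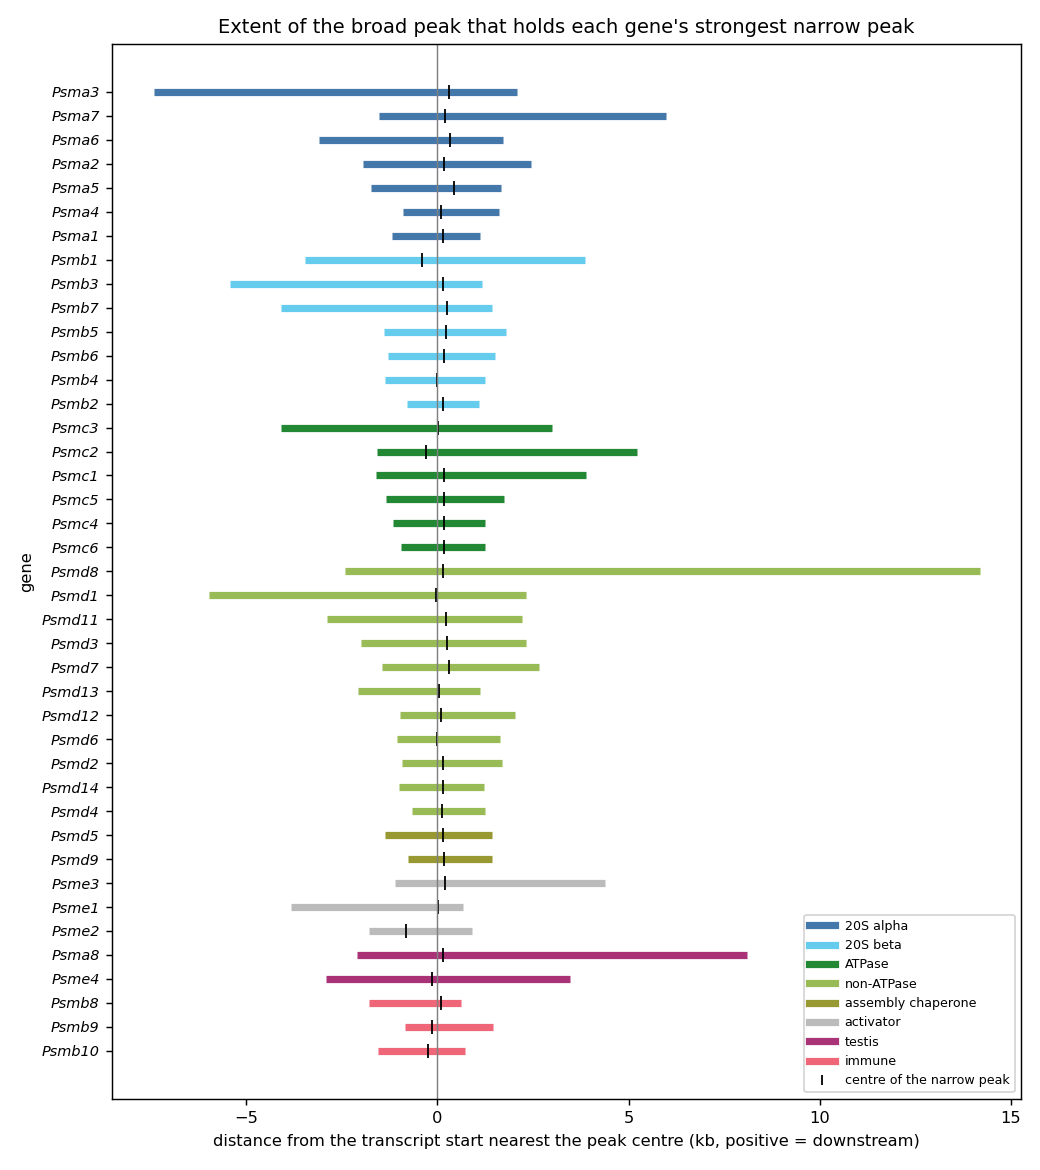
Extent of the broad peak that holds the strongest narrow peak of each gene (bars, in kb from the transcript start nearest the peak centre, downstream positive), with the narrow peak centre as a tick, grouped by role. The bars of Psmd8 and Psma8 reach 14180 and 8097 bp downstream, and that of Psma3 reaches 7418 bp upstream.

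More than 1 narrow peak lay at the starts of 6 of 43 members, beside 18.3% of all genes. At Psma6 the strongest peak (1682 and 1724 fragments over 27) lay at an internal start 14910 bp downstream of the 5′ end of the gene, and the peak near the 5′ end was weaker, with 214 and 207 fragments over 13. At Psmb1 the second peak had more fragments, 1616 and 1728, but 35 in the input and a lower enrichment, 44.9. The second peaks of Psma7, Psmc4, Psmd4 and Psmd5 had 15 to 58 ChIP fragments per library. Those of Psma7, Psmc4 and Psmd4 lay outside the PRDM9-independent regions.

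PRDM9-dependent H3K4me3, counted as narrow peaks outside those regions, was found in some of the members. There were 21 such peaks in the bodies or at the starts of 17 of 43 genes (39.5%), beside 49.6% of all genes. The members held 21.2 of them per Mb of gene and all autosomal protein-coding genes 30.1. Their median enrichment was 2.43, beside 2.69 over all 60913 autosomal PRDM9-dependent narrow peaks. The most enriched lay in Psme4, 14893 bp from its nearest start, with 17 and 22 fragments over 1 in the input and an enrichment of 18.2, inside a broad peak that overlaps a PRDM9-independent region. The most covered lay in Psma6, with 80 and 93 fragments over 9. Psma8 held 1, with 9 and 8 fragments over 4. All had at most 93 fragments per library.

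Promoter letters were searched for 10 motifs on both strands of the windows, as a description of sequence and not of binding. ACTTCCG, a core of ETS factor sites, stood out by its share. It was found in 13 of 36 members (36.1%), beside 9.31% of all windows and 11.7% of windows of genes with a narrow peak. The 16 matches are printed with 10 bases on each side, read on the strand that carries the letters, with the match in capitals. In brackets are the coordinates (mm10) and whether that strand is the gene's.
Psma4 (chr9:54950746-54950772, gene strand): cactgggagaACTTCCGcgtcctcccg
Psma6 (chr12:55398831-55398857, gene strand): agtagccataACTTCCGggagggggct
Psmb4 (chr3:94886947-94886973, gene strand): gcaaaggaccACTTCCGtttccggtga
Psmc1 (chr12:100110129-100110155, gene strand): ttttaaagttACTTCCGttctgtccgg
Psmc1 (chr12:100110163-100110189, gene strand): tggtggatgcACTTCCGgcggtggcga
Psmc2 (chr5:21785180-21785206, gene strand): accagtgagcACTTCCGggatggggct
Psmc4 (chr7:28050065-28050091, gene strand): tatgtgaaggACTTCCGttggcgtcag
Psmd6 (chr14:14120973-14120999, opposite strand): cgccagtctgACTTCCGgtcgcgtctc
Psmd8 (chr7:29180674-29180700, gene strand): gagcgaacggACTTCCGttcgccattt
Psmd12 (chr11:107479500-107479526, gene strand): tgagcgggcgACTTCCGgtgcgagtga
Psmd13 (chr7:140882394-140882420, gene strand): gtgagcgagcACTTCCGtgcgccatcc
Psmd13 (chr7:140882293-140882319, opposite strand): cgcgttcttgACTTCCGctaaacttct
Psmd13 (chr7:140882379-140882405, opposite strand): gtgctcgctcACTTCCGgcaccgcggg
Psmd14 (chr2:61711569-61711595, gene strand): agctcgcctgACTTCCGcctcgcgggg
Psme3 (chr11:101316204-101316230, gene strand): ctgtgacgcaACTTCCGgcgtgagcgg
Psme4 (chr11:30771713-30771739, opposite strand): gcctcaagtcACTTCCGgggcggggcc

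Of these matches 14 began within 100 bases of the start, and 2 overlapped another motif searched, TGANNNNGC in Psmd13 and GAAANNGAA in Psmb4. The carriers include alpha and beta subunits, ATPases and non-ATPases as well as Psme4, and none of the immune subunits, Psme1 or Psme2. A window without the match was common, since 12 of 30 constitutive members with a window carried it. The windows of Psmb9, Psme2 and Psmb10 are set on gene starts that lie 575, 823 and 1117 bases from their peak centres. The median scaled coverage of the 13 genes was 1705, beside 1385 for the 21 other members with a window and a peak. Those 21 include the immune subunits, Psme1 and Psme2, whose coverage was already known to be low among the members.

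The other letters were closer to their background. TGANNNNGC, the core of the antioxidant response element that Nfe2l1 and its relatives bind, was in 20 of 36 members (55.6%), beside 41.8% of all windows. GGGCGG (SP1) was in 58.3%, beside 50.0% of all windows and 61.9% of those of genes with a narrow peak. CCAAT (NFY) was in 33.3%, beside 37.8% and 37.1%. TATAAA was in 11.1%, beside 12.6% and 7.11%, so for GGGCGG and TATAAA the side on which the members lay turned with the background. TGACTCA was in Psmd9 alone and CGCATGCG (NRF1) in Psma2 alone, beside 4.44% and 2.71% of all windows. TGACGTCA (CRE), in 2.45% of all windows, was in no member's window. GAAANNGAA and TTCNNNGAA, cores of interferon response elements that were added after the values were seen, were in 13.9% of members beside 8.04% and in 5.56% beside 7.79%. The first was in Psmb3, Psmb4, Psmd4, Psmd9 and Psme1, and the second in Psmb8 and Psmd2. TGACTCA and TGANNNNGC can overlap.

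Over all genes with a peak, coverage was higher where the window held more CG dinucleotides. The median scaled coverage was 556 with 10 to 14 CG dinucleotides, 902 with 15 to 19 and 1192 with 20 to 29. Psmb8 had 11 CG dinucleotides and a scaled coverage of 171, and Psmb9 17 and 270, below the lower quartiles of genes of like content (221 and 412). Psme1 had 19 and 396, below the same quartile as Psmb9. Psmd6, with 16, had 2186 and Psma3, with 10, had 2304, both above the upper quartiles (1469.6 and 1118). The window of Psmb10, with 3, is set on a gene start 1117 bases from its peak centre, the only such case over 1 kb. That of Psmb9 is set on a gene start 575 bases from its peak centre, and Psmb9 shares this peak with Tap1. The CG count of the Psmb9 window may thus not be that of the marked start.

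**Figure D5:**
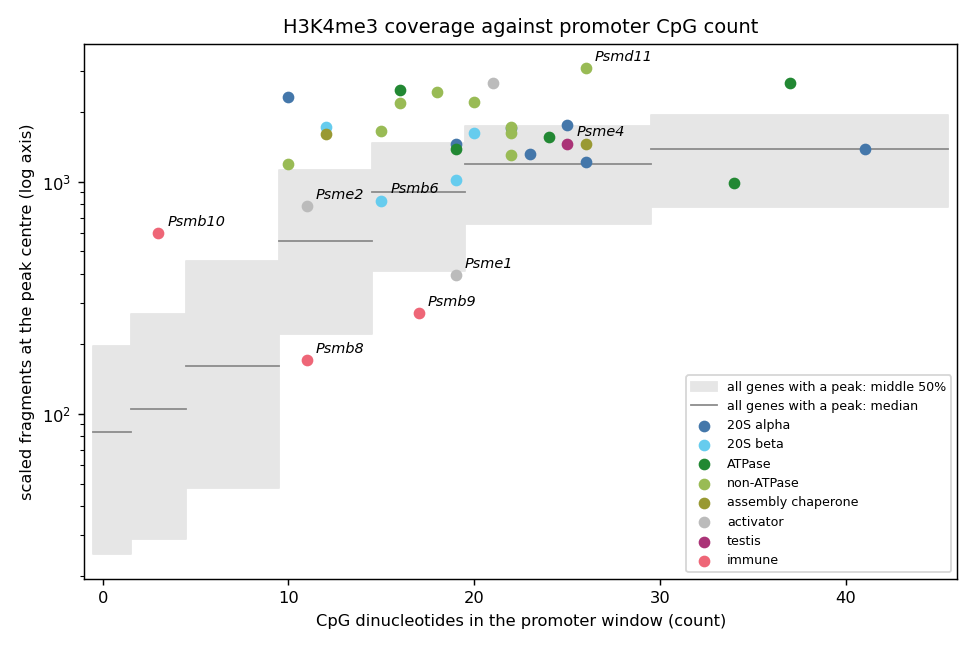
Scaled fragments at the peak centre (log axis) against the number of CG dinucleotides in the RefSeq promoter window for the 34 members with both, coloured by role. Grey boxes and lines give the interquartile range and median of all genes with a peak in bins of CG count, the last bin reaching past the axis, and Psmb8, Psmb9 and Psme1 lie below the boxes of their bins.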

How the data were processed

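Whole-testis chromatin gave 2 H3K4me3 ChIP libraries and 1 input. The authors aligned the reads (BWA, then Stampy; mm10) and dropped improper pairs and PCR duplicates before counting fragments with SAMtools and bedtools. Their likelihood-ratio caller used both replicates jointly, so replicates have no peak sets of their own. The deposited counts are fragments over each narrow peak centre, with no normalization. The deposited enrichment is the authors' ratio over local background, imprecise where the input is low. The deposited p-value comes from the authors' likelihood ratio test, with a limit of 1e-06 for narrow peaks, and the smallest are written as 0. Broad peaks, made by the authors from 100 bp bins at a limit of 1e-05, and PRDM9-independent regions are positions only.

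Narrow peaks were matched to every transcript start of a gene within 1 kb, and broad peaks by an overlap of at least 1 bp with that stretch. A narrow peak was PRDM9-dependent when its centre lay in no PRDM9-independent region. Intervals are exact (Poisson for counts, Clopper-Pearson for ratios of 2 counts, 95%) and cover counting error only. The members and lists were chosen with earlier results of these data known. Beside the 6 immune cell markers given, another is not reported here. Named are the testis, immune and thymus subunits and their partners, the 3 highest and 3 lowest others by enrichment, the extremes of each role and of width, and members with no, several or PRDM9-dependent peaks at a start. Peak matching and Poisson intervals were tested on simulated data. Alternatives were other distances, starts, peak choices, scalings and measures, and leaving out each replicate. Python 3.11.15, pandas 2.3.3, numpy 2.4.6, scipy 1.17.1 and matplotlib 3.10.9 were used.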

Additional observations from a re-analysis of the deposited data

How the results depend on the processing

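The testis subunits changed sides with the measure. Their log2 difference from the constitutive members was -0.45 in scaled coverage but 0.38 in the deposited enrichment and 0.36 in ChIP over input with 1 added to both. Psma8 moved from -0.75 to 0.45 and 0.40, and Psme4 from -0.15 to 0.31 and 0.32. Against the 20S constitutive subunits alone the testis difference was -0.32 and the immune difference -2.44. With the annotated 5′ end as the only start, 39 members had a narrow peak, since Psmb10 and Psmd9 lost theirs, the immune difference of the remaining 2 genes was -2.86, and the median scaled coverage of the members was 1483. The immune difference stayed negative under all alternatives tried. Taking the peak of highest coverage or the peak nearest to a start gave a median enrichment of 71.5. Leaving out each replicate in turn gave a median scaled coverage of 1514 to 1549, a testis difference of -0.49 to -0.41 and an immune difference of -2.60 to -2.55. The deposited enrichment has no value per replicate. Its substitute was ChIP over input with 1 added to both, multiplied to match the deposited enrichment at PRDM9-independent peaks. The median of this substitute was 73.2 to 74.0, which cannot show how stable the deposited enrichment is. The median width was 3200 bp when the broad peak had to hold the start itself or the strongest narrow peak. With p under 1e-10 the PRDM9-dependent narrow peaks fell to 13. Leaving Psme1 and Psme2 out of the constitutive members, chosen after seeing the data, gave -2.58 for the immune and -0.46 for the testis difference. No paired analysis was possible because the ChIP and input libraries share fewer than 2 replicate numbers and belong to 1 condition. The low depth of the input limits the precision of the enrichment.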

Other observations

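Genes of like name outside the rule gave these values. Psmd10, a regulator assembly chaperone on the X chromosome, had a narrow peak at a start with 291 and 373 fragments over 9 in the input and an enrichment of 34.6. Psmc3ip, a recombination factor gene named for its partner Psmc3, had 1146 and 1312 fragments over 13 and an enrichment of 88.9. Fam192a, also called Psme3ip1, had 3072 and 3137 over 27 and 108. Among processed pseudogenes of Psmb subunits, Psmb6-ps2 had a narrow peak outside the PRDM9-independent regions with 24 and 18 fragments over 14, Psmb5-ps one inside them with 75 and 81 over 4, and Psmb6-ps and Psmb7-ps2, both on the X chromosome, had none.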
